A study of Mus musculus with 12 samples.

Results

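This report describes 10 microRNA (miRNA) precursors of the mouse cerebral cortex that give rise to miR-128, miR-138, miR-129, miR-218, miR-137 and miR-153, miRNAs known to be enriched in neurons. They were chosen by name from that knowledge, and they are 10 of the 589 precursors in the deposited table. Small RNA was sequenced from the cortex of female mice on the C57BL/6J background in 4 groups: wild-type mice on water (WT), wild-type mice whose drinking water held 10% (v/v) alcohol (WT + EtOH), mice lacking the Toll-like receptor 4 gene on water (TLR4-KO), and mice lacking that gene on the same alcohol solution (TLR4-KO + EtOH). Treatment began in young animals and lasted 5 months. Each group had 3 libraries, 12 in all, and each library was made from the pooled RNA of 3 mice, so that a standard deviation (SD) is a spread between pools and not between mice. Small RNA libraries do not capture the Tlr4 transcript, so that the genotype labels could not be checked here.

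A miRNA is cut from a hairpin precursor as a short RNA that guides a silencing complex to messenger RNAs, mostly by pairing through its seed near the 5′ end. Neurons use such guides to tune the local synthesis of proteins at synapses, the set of ion channels at the membrane and the exit of progenitors from division. miR-128 dampens neuronal excitability, and miR-138 limits the size of dendritic spines. miR-129 holds back a dendritic potassium channel, and miR-218 is needed by motor neurons and also acts at forebrain synapses. miR-137 acts on progenitors, dendrites and the release of synaptic vesicles, and miR-153 represses proteins of vesicle release and the precursor of amyloid. The cortex also holds glia, blood vessels and blood cells, and in this bulk tissue fewer cells of a type and less RNA per cell cannot be told apart. Enrichment in neurons itself cannot be checked without sorted cells.

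The guide strands are printed because the members fall into families by these sequences, with the seed (bases 2 to 8, counted from the 5′ end) in capitals. All 10 of 10 precursors were matched by name to RefSeq sequences (GRCm38.p6), and they yield 6 guides of 21 to 23 bases with 6 different seeds.
miR-128-3p: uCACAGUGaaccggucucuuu
miR-138-5p: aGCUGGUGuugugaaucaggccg
miR-129-5p: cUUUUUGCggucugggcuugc
miR-218-5p: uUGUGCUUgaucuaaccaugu
miR-137-3p: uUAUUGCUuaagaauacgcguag
miR-153-3p: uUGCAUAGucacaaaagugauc
The guides miR-128-3p, miR-138-5p, miR-129-5p and miR-218-5p are each encoded at 2 places of the genome, and a read of such a guide cannot be assigned to either copy from its sequence. How the deposited values were divided between copies is not given in the sources used here. Among the RefSeq mature sequences, the seed of miR-218-5p is also that of miR-7002-3p, whose precursor is not among the 589. The seeds of the other 5 guides belong to no further RefSeq name.

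The hairpins lie in neuronal and other transcription units on GRCm38, by the RefSeq positions and the GENCODE M21 annotation. mmu-mir-128-1 is at chr1:128202361-128202430 on the plus strand in an intron of R3hdm1. mmu-mir-128-2 is at chr9:112118636-112118711 on the minus strand in an intron of Arpp21, a gene for a neuronal phosphoprotein regulated by cyclic AMP. Introns of Slit2 and Slit3, which encode secreted axon guidance proteins, hold mmu-mir-218-1 (chr5:48223942-48224051, plus strand) and mmu-mir-218-2 (chr11:35616816-35616925, plus strand). mmu-mir-153 is at chr12:117250817-117250885 on the plus strand in an intron of Ptprn2, which encodes a protein of dense-core vesicles. The other 5 hairpins are in noncoding units. mmu-mir-138-1 (chr9:122682876-122682974, plus strand) overlaps an exon of the pseudogene Gm47135, and mmu-mir-138-2 (chr8:94324311-94324381, plus strand) an exon of the long noncoding RNA C78859. mmu-mir-129-1 (chr6:29022619-29022691, plus strand) overlaps an exon of Gm3294, and mmu-mir-129-2 (chr2:94241364-94241453, minus strand) lies in an intron of Mir670hg. mmu-mir-137 (chr3:118433857-118433929, plus strand) overlaps an exon of Gm26871.

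The table gives 1 normalized value per precursor and library on a scale without a unit, on which the highest value is 135 in every library and the lowest is 0. A precursor listed at 0 need not have been absent, since the filters and the sharing of reads between copies that led to the values are not given in full in the sources used here. Differences are given on this scale and cannot be read as folds. The table gives no read count beside a value, so that the counting error of a value cannot be worked out from it, and the read totals that the study gives are not used here. Of the 589 precursors, 324 were above 0 in any library and 190 in all 12. 8 of the 10 members were above 0 in all 12 libraries, and mmu-mir-137 and mmu-mir-153 were each above 0 in 8. The number of precursors above 0 ran from 216 in TLR4-KO replicate 3 to 270 in WT replicate 1 and WT + EtOH replicate 1.

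The WT libraries were more alike than those of any other group. They lay outside the range of the others for part of the table, which bears on every comparison with WT below. Over the 190 precursors above 0 in all libraries, Spearman correlations between WT libraries were 0.984 to 0.988, against 0.889 to 0.959 between WT and the other 9 libraries and 0.900 to 0.980 among those 9. The latter ranges overlap. These coefficients are across precursors, which are not independent replicates. All 3 WT libraries lay outside the range of the other 9 for 40 of the 324 precursors above 0 in any library (12.3%, and 20.0% of the 190), and for 3 of the 10 members. No such count was made for another group. WT was below the other 9 libraries for mmu-mir-128-1, as for 5.25% of the 324, and above them for mmu-mir-218-1 and mmu-mir-218-2, as for 7.10%. The latter pair shares a guide, so that its members are not independent of each other. The study's methods describe pooling the indexed libraries for sequencing, and they name no batch of RNA extraction or library preparation. A batch that coincided with the WT group and the group itself cannot be told apart.

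The members spanned most of the scale. By the mean over the 12 libraries, mmu-mir-138-1 was highest at 90.7 ± 2.03 (SD, n = 12), rank 20 of the 589 precursors, followed by mmu-mir-138-2 at 85.9 ± 2.35 (rank 28). Next came mmu-mir-129-2 at 75.9 ± 3.53 and mmu-mir-129-1 at 75.8 ± 3.52, then mmu-mir-128-1 at 67.8 ± 4.42. The middle of the order held mmu-mir-218-2 at 53.4 ± 4.58, mmu-mir-218-1 at 49.7 ± 4.93 and mmu-mir-128-2 at 29.7 ± 3.09. Lowest were mmu-mir-153, with values from 0 to 30.7 (rank 212), and mmu-mir-137, with values from 0 to 20.5 (rank 234), and the former was the higher in 6 of the 12 libraries. In this order 2 further neighbouring pairs differed by less than the larger SD of the pair, the copies of miR-129 and the copies of miR-218. The order is that of the deposited scale. The study's methods name a trimmed-mean normalization (TMM) of counts. How the deposited values follow from such counts is not given in the sources used here.

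**Figure D1:**
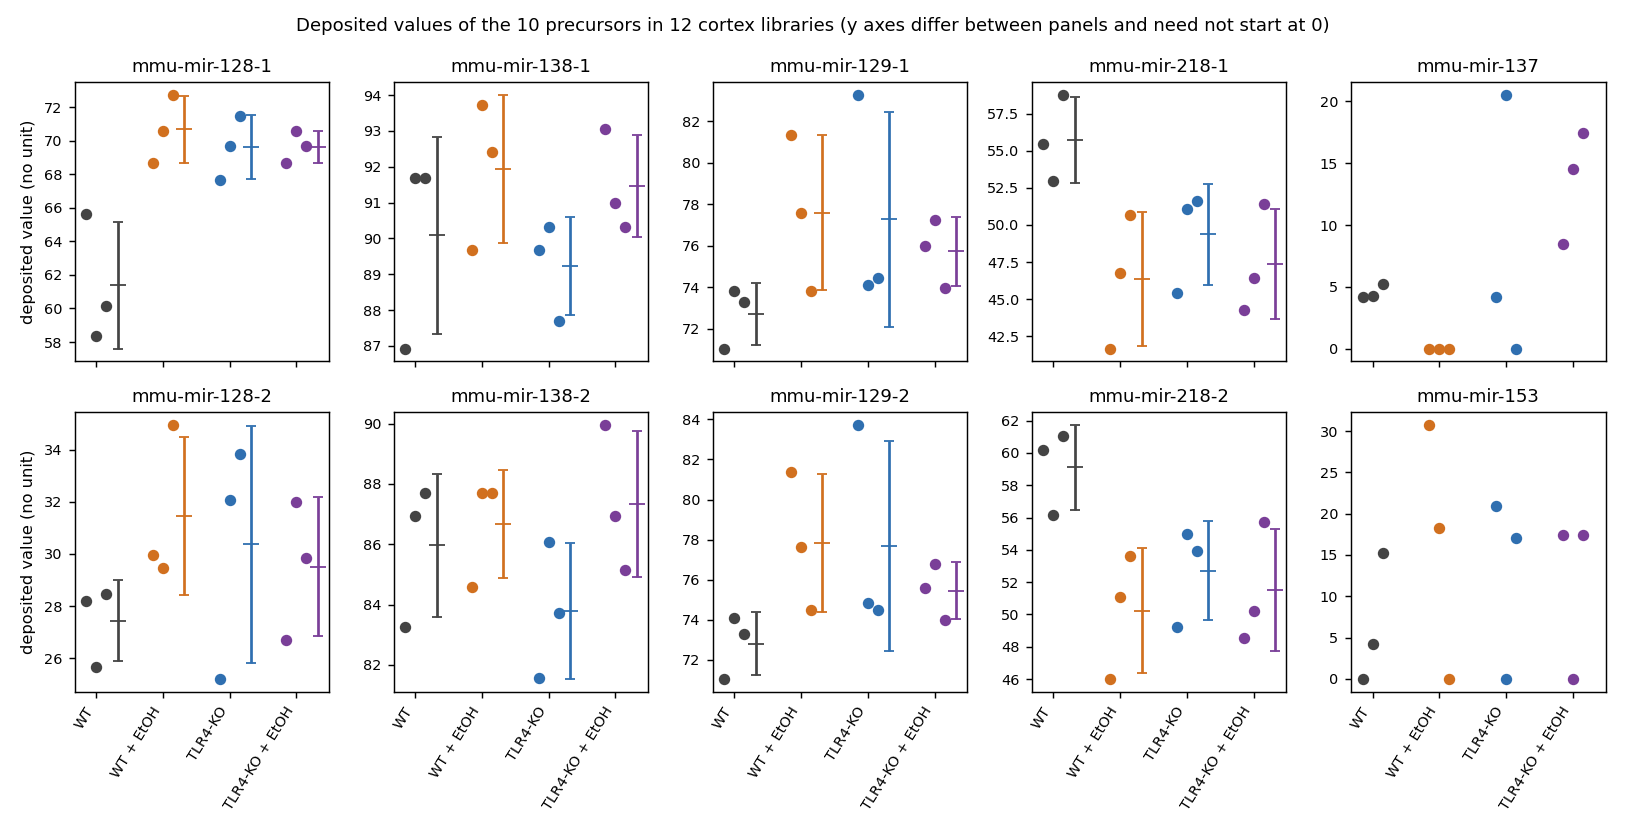
Deposited values (y axis, no unit, a separate range in each panel) of the 10 precursors in the 4 groups (x axis); dots are the 3 libraries of a group in the order of their replicate numbers, and the bar beside them is the mean ± SD, left out for mmu-mir-137 and mmu-mir-153, which reach 0. For mmu-mir-128-1 the WT libraries lie at 58.3 to 65.6, below the other 9, and for mmu-mir-218-1 at 53.0 to 58.8, above the other 9.

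Of the 2 precursors of miR-128, the guide that dampens excitability, mmu-mir-128-1 showed the clearest separation between WT and the other groups. It stood at 65.6, 58.3 and 60.2 in the WT libraries and at 68.7, 70.6 and 72.7 in WT + EtOH. In TLR4-KO it stood at 67.7, 69.7 and 71.5, and in TLR4-KO + EtOH at 68.7, 70.6 and 69.7. Every WT value was thus below every other value, while the 3 remaining groups overlapped one another. The mean was higher by 9.29 (95% confidence interval (CI) 4.90 to 13.7) in WT + EtOH than in WT, in 3 of 3 libraries, and limma gave an adjusted p of 0.0563. TLR4-KO was higher than WT by 8.24 (CI 3.84 to 12.6), also in 3 of 3 libraries, with an adjusted p of 0.0676 in limma. Neither difference passed the threshold of 0.05, and both were larger than the spread between pools, whose SD within groups was 2.39. Alcohol made a mean difference of 0.0371 (CI -4.36 to 4.43) in TLR4-KO mice, and the alcohol effects of the genotypes differed by -9.26 (CI -15.5 to -3.04), with a limma p of 0.00868 and an adjusted p of 0.197. TLR4-KO + EtOH and WT + EtOH differed by -1.02 (CI -5.41 to 3.38), and with 1 library left out this ran from -2.01 to 0.00861.

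The side of the threshold on which mmu-mir-128-1 fell depended on the processing. Without WT replicate 1, the highest of the WT values, the adjusted p was 0.00867 for WT + EtOH against WT, 0.0163 for TLR4-KO against WT and 0.0495 for the difference of the alcohol effects. Over all alternatives tried, the adjusted p for these 3 results ran from 0.00867 to 0.215, from 0.0163 to 0.296 and from 0.0495 to 0.410, and the direction was the same in all of them.

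mmu-mir-128-2, which carries the same guide, stood at 28.2, 25.7 and 28.5 in WT, at 29.9, 29.5 and 34.9 in WT + EtOH, at 25.2, 32.1 and 33.8 in TLR4-KO and at 26.7, 32.0 and 29.8 in TLR4-KO + EtOH. The WT + EtOH libraries were above the WT libraries, and the TLR4-KO libraries overlapped them. Its differences from WT were 4.01 (CI -1.75 to 9.78) for WT + EtOH and 2.93 (CI -2.84 to 8.69) for TLR4-KO, with adjusted p values of 0.739 and 0.929 in limma. With 1 library left out, the first ran from 2.27 to 5.00 and the second from 1.21 to 5.51. The copies thus had positive differences in both comparisons with WT, but mmu-mir-128-1 was higher than mmu-mir-128-2 by 31.7 to 42.5 in each of the 12 libraries, and their values correlated with a Pearson r of 0.670 over these 12. The hairpins share the guide but not the passenger strand, printed with bases 2 to 8 in capitals.
miR-128-1-5p: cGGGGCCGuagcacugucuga
miR-128-2-5p: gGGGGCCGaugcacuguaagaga
The longest run of bases that these passenger strands share is 7, so that reads of the passenger strands, unlike those of the guide, can be assigned to a copy. The deposited values do not separate the strands.

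The precursors of miR-138, the guide that limits spine size, were the most abundant members and among the least variable precursors. mmu-mir-138-1 stood at 86.9, 91.7 and 91.7 in WT, at 89.7, 93.7 and 92.4 in WT + EtOH, at 89.7, 90.3 and 87.7 in TLR4-KO and at 93.0, 91.0 and 90.3 in TLR4-KO + EtOH. The groups overlapped in all 4 comparisons. Its SD over the 12 libraries ranked 6 from the smallest among the 190 precursors above 0 in every library, and that of mmu-mir-138-2 ranked 14, against a median SD of 4.51. mmu-mir-138-2 stood at 83.3, 86.9 and 87.7 in WT, at 84.6, 87.7 and 87.7 in WT + EtOH, at 81.6, 86.1 and 83.7 in TLR4-KO and at 90.0, 86.9 and 85.2 in TLR4-KO + EtOH. These groups overlapped as well. The difference with the smallest limma p in this family was that of mmu-mir-138-2 between TLR4-KO + EtOH and TLR4-KO, 3.55 (CI -0.537 to 7.64, adjusted p = 0.904), and with 1 library left out it ran from 2.25 to 4.70. Against WT, the WT + EtOH mean differed by 1.84 (CI -1.79 to 5.48) for mmu-mir-138-1 and by 0.704 (CI -3.38 to 4.79) for mmu-mir-138-2. The corresponding values for TLR4-KO against WT were -0.862 (CI -4.50 to 2.77) and -2.17 (CI -6.26 to 1.92). With 1 library left out, the difference of mmu-mir-138-1 ran from 0.255 to 2.97 for WT + EtOH and from -2.45 to -0.0687 for TLR4-KO. Those of mmu-mir-138-2 ran from -0.645 to 1.74 and from -3.52 to -1.06. mmu-mir-138-1 was above mmu-mir-138-2 in all 12 libraries, by 3.10 to 8.10, and r over these libraries was 0.831.

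The precursors of miR-129, the guide that holds back a dendritic potassium channel, had values close to each other. In WT, mmu-mir-129-1 stood at 71.0, 73.9 and 73.3, in WT + EtOH at 81.4, 77.6 and 73.9, in TLR4-KO at 83.3, 74.1 and 74.5, and in TLR4-KO + EtOH at 76.0, 77.3 and 74.0. The highest values were those of replicate 1 of TLR4-KO and of WT + EtOH, and WT + EtOH replicate 3 was level with WT replicate 2. mmu-mir-129-2 was equal to mmu-mir-129-1 in 6 of the 12 libraries and within -0.742 to 0.470 of it in all (mmu-mir-129-1 minus mmu-mir-129-2), with an r of 0.995. It stood at 71.0, 74.1 and 73.3 in WT, at 81.4, 77.6 and 74.5 in WT + EtOH, at 83.7, 74.8 and 74.5 in TLR4-KO and at 75.6, 76.8 and 74.0 in TLR4-KO + EtOH. Its WT libraries lay below those of WT + EtOH and of TLR4-KO, in each case by less than 1 between the closest libraries. mmu-mir-129-2 was higher than in WT by 5.00 (CI -1.07 to 11.1, adjusted p = 0.547) in WT + EtOH and by 4.86 (CI -1.21 to 10.9, adjusted p = 0.552) in TLR4-KO. Without WT + EtOH replicate 1 the former difference was 3.23, and without TLR4-KO replicate 1 the latter was 1.84. For mmu-mir-129-1 these differences were 4.88 and 4.55, and without the same libraries they were 3.0 and 1.55. Between TLR4-KO + EtOH and TLR4-KO the differences were -1.53 (CI -7.76 to 4.69) for mmu-mir-129-1 and -2.22 (CI -8.30 to 3.85) for mmu-mir-129-2. Without TLR4-KO replicate 1 they changed sign, to 1.46 and 0.798. All of these intervals include 0.

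A further precursor, mmu-mir-129b, lies on the plus strand opposite mmu-mir-129-2, and its hairpin (chr2:94241378-94241442, 65 bases) falls within that of mmu-mir-129-2. Its mature strands are printed to show what antisense transcription of this hairpin yields, again with bases 2 to 8 in capitals, beside the other strand of mmu-mir-129-2.
miR-129b-5p: gCUUUUUGggguaagggcuucc
miR-129b-3p: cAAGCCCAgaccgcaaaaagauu
miR-129-2-3p: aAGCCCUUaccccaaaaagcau
miR-129b-5p pairs without a mismatch over 20 bases with miR-129-2-3p, and miR-129b-3p does so over 20 bases with miR-129-5p. Whether the authors counted by strand is not given in the sources used here, and without strand the reads of the opposite hairpins cannot be told apart. mmu-mir-129b was at 51.6, 54.3 and 51.5 in WT, at 56.7, 56.7 and 62.3 in WT + EtOH, at 57.6, 61.0 and 60.7 in TLR4-KO and at 49.8, 59.7 and 58.6 in TLR4-KO + EtOH. The WT libraries were below those of WT + EtOH and TLR4-KO, and TLR4-KO + EtOH overlapped them through its replicate 1. The differences from WT were 6.11 (CI -0.131 to 12.4, adjusted p = 0.418 in limma) and 7.28 (CI 1.04 to 13.5, adjusted p = 0.289).

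The precursors of miR-218, which is carried by the introns of Slit2 and Slit3, were the members with the highest WT values relative to the other groups. mmu-mir-218-1 stood at 55.5, 53.0 and 58.8 in WT and at 41.7, 46.7 and 50.6 in WT + EtOH. In TLR4-KO it was at 45.4, 51.1 and 51.6, and in TLR4-KO + EtOH at 44.2, 46.4 and 51.4. Each WT value was above each of the other 9, and the other 3 groups overlapped. The WT + EtOH mean differed from WT by -9.38 (CI -16.1 to -2.63) and was lower in 3 of 3 libraries, with a limma p of 0.0123 and an adjusted p of 0.201. TLR4-KO differed from WT by -6.36 (CI -13.1 to 0.392, adjusted p = 0.462). Alcohol in TLR4-KO mice went with a difference of -2.01 (CI -8.76 to 4.74), which ran from -4.05 to -0.453 with 1 library left out, and the alcohol effects of the genotypes differed by 7.37 (CI -2.18 to 16.9, adjusted p = 0.659).

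mmu-mir-218-2 showed nearly the same profile, with 60.2, 56.1 and 61.0 in WT, 46.0, 51.1 and 53.6 in WT + EtOH, 49.2, 55.0 and 53.9 in TLR4-KO and 48.5, 50.2 and 55.7 in TLR4-KO + EtOH. Again the WT values were the highest, although WT replicate 2 exceeded TLR4-KO + EtOH replicate 3 by less than 1. The differences from WT were -8.87 (CI -15.1 to -2.68, adjusted p = 0.194) for WT + EtOH and -6.39 (CI -12.6 to -0.203, adjusted p = 0.379) for TLR4-KO. Values of mmu-mir-218-2 were above those of mmu-mir-218-1 in all 12 libraries by 2.27 to 4.69, with an r of 0.988 over these libraries, as far as copies with a shared guide can be compared.

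mmu-mir-137, known for its part in progenitors and vesicle release, was near the bottom of the scale. It stood at 4.20, 4.23 and 5.23 in WT, at 0 in all 3 WT + EtOH libraries, at 4.20, 20.5 and 0 in TLR4-KO and at 8.46, 14.5 and 17.5 in TLR4-KO + EtOH. The WT values were the lowest or next to the lowest level of their libraries, where 28, 14 and 24 other precursors had the same value, so that the step from WT to 0 is one at the lowest levels of the scale. TLR4-KO + EtOH was higher than WT + EtOH in 3 of 3 libraries, by 13.5 (CI 2.66 to 24.3), with a limma p of 0.0205 and an adjusted p of 0.738. WT + EtOH differed from WT by -4.56 (CI -15.4 to 6.25, adjusted p = 1). When only the 6 libraries of WT and WT + EtOH were fitted, so that the spread of the TLR4-KO libraries did not enter, the adjusted p of that difference was 0.00937, the lowest of its alternatives, whose highest was 1. That p rests on values at the lowest levels or at 0, with an SD of 0.583 in WT and of 0 in WT + EtOH. Without TLR4-KO replicate 2 the difference between TLR4-KO and WT turned from 3.68 to -2.45.

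mmu-mir-153, whose guide represses proteins of vesicle release, was above 0 in some libraries of every group and at 0 in a library of each. Its values were 0, 4.23 and 15.2 in WT, 30.7, 18.3 and 0 in WT + EtOH, 20.9, 0 and 17.0 in TLR4-KO and 17.5, 0 and 17.5 in TLR4-KO + EtOH. The groups overlapped in each comparison. The difference between WT + EtOH and WT was 9.84 with a CI of -11.2 to 30.9, which leaves the direction unresolved. It was 2.64 without WT + EtOH replicate 1 and 18.0 without WT + EtOH replicate 3.

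Over the 10 members, none passed the threshold of an adjusted p of 0.05 in limma in any of the 5 contrasts, and no other tool was run. For WT + EtOH against WT, 0 of 10 were called, against 10 of all 589 precursors (1.70%, or 3.09% of the 324 above 0 in any library). An unadjusted p under 0.05 was reached by 3 members (mmu-mir-128-1, mmu-mir-218-1 and mmu-mir-218-2), against 22.8% of the 324 and 32.1% of the 190 above 0 in all libraries, so that the members' share was near that of these precursors. The precursors of miR-218 share a guide (r = 0.988 over the 12 libraries) and are not independent results. For TLR4-KO against WT, 0 members were called against 15 precursors (2.55%, or 4.63% of the 324), and the unadjusted p was under 0.05 for 2 members (mmu-mir-128-1 and mmu-mir-218-2), against 22.2% of the 324 and 29.5% of the 190. These comparisons share the WT libraries, so that they are not independent of each other. For alcohol in TLR4-KO mice, 0 members were called against 2 precursors (0.340%, or 0.617% of the 324), and 0 reached an unadjusted p under 0.05, against 12.7% of the 324 and 10.5% of the 190. For TLR4-KO + EtOH against WT + EtOH, 0 were called against 3 precursors (0.509%, or 0.926% of the 324), and 1 member, mmu-mir-137, reached an unadjusted p under 0.05, against 8.33% of the 324 and 6.32% of the 190. For the difference of the alcohol effects, 0 were called against 7 precursors (1.19%, or 2.16% of the 324), and 1 member, mmu-mir-128-1, did so without adjustment, against 22.8% of the 324 and 30.5% of the 190. With 3 pools a side, the smallest p of a two-sided exact permutation test is 0.1, so such a test could call no single precursor, and limma's calls draw on variance pooled over the 4 groups. Little was borrowed across precursors, with 0.308 prior degrees of freedom in a total of 8.31.

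**Figure D2:**
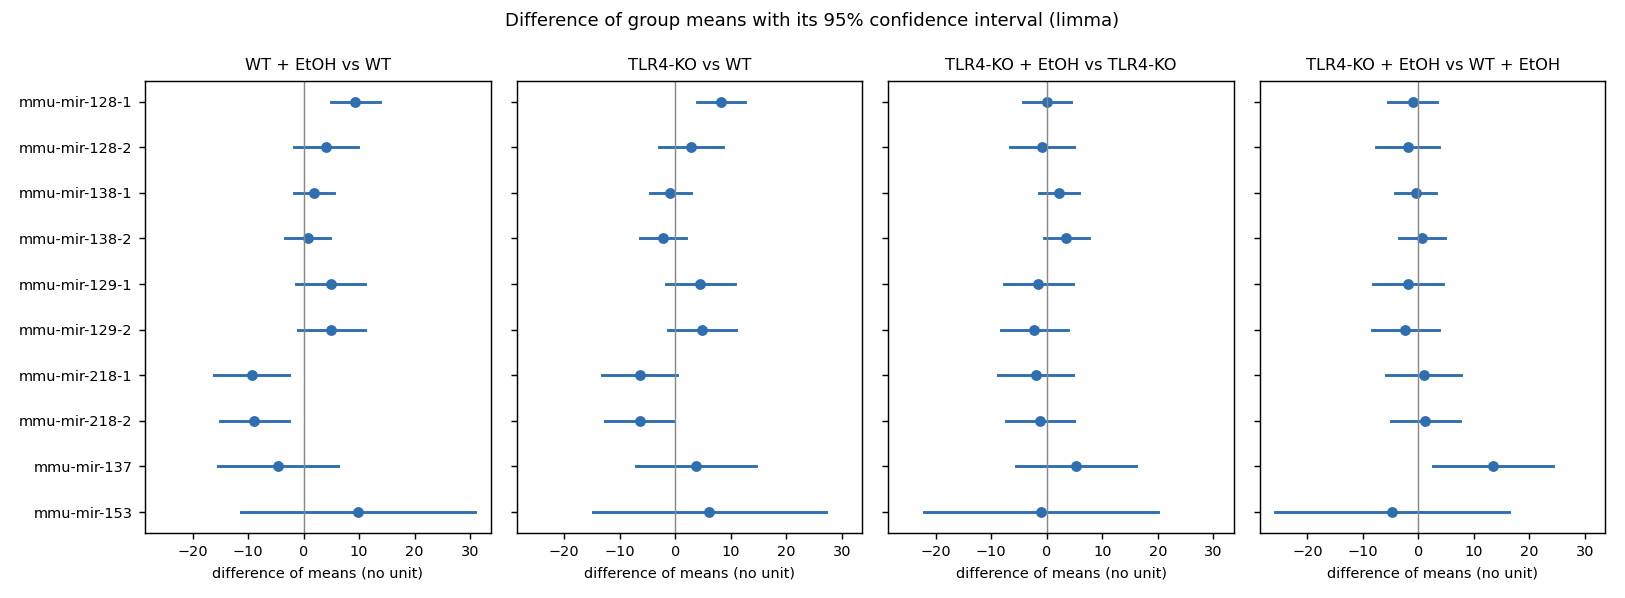
Difference of group means on the deposited scale (x axis, no unit; first group minus second) for each of the 10 precursors (y axis) in the 4 comparisons of groups; points are the differences and lines their 95% confidence intervals from limma. Intervals that exclude 0 are those of mmu-mir-128-1, mmu-mir-218-1 and mmu-mir-218-2 for WT + EtOH vs WT, of mmu-mir-128-1 and mmu-mir-218-2 for TLR4-KO vs WT, and of mmu-mir-137 for TLR4-KO + EtOH vs WT + EtOH, before adjustment for the number of precursors.

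Groups whose libraries did not overlap were common among the members in comparisons with WT, as they were in the whole table. Precursors that share a guide are counted singly here, although their values are not independent. Between WT + EtOH and WT, 6 of the 10 members did not overlap, 3 higher (mmu-mir-128-1, mmu-mir-128-2 and mmu-mir-129-2) and 3 lower (mmu-mir-137, mmu-mir-218-1 and mmu-mir-218-2). Of the 324 precursors above 0 in any library 30.6% did not overlap either (13.3% higher and 17.3% lower), and of the 190 above 0 in all libraries 41.1%. Between TLR4-KO and WT, 5 members did not overlap, with mmu-mir-128-1, mmu-mir-129-1 and mmu-mir-129-2 higher and the precursors of miR-218 lower, against 28.4% of the 324 (13.0% higher and 15.4% lower) and 41.1% of the 190. Alcohol in TLR4-KO mice separated the libraries of 0 members, of 11.1% of the 324 and of 10.5% of the 190. Genotype under alcohol separated those of 1 member, mmu-mir-137, which was higher without the receptor, of 8.95% of the 324 (4.32% higher) and of 6.84% of the 190. The median difference over the 10 members was 2.93 for WT + EtOH against WT and 3.30 for TLR4-KO against WT, with a median of 0 over the 324 in both. It was -0.935 for alcohol in TLR4-KO mice and -0.751 for genotype under alcohol, again with medians of 0 over the 324. For WT + EtOH against WT, 7 of the differences were above and 3 below 0, so that the median joins values on both sides. Opposite responses to alcohol, without overlap in either genotype, were found for 0 of the 10 members, against 2.78% of the 324 and 3.68% of the 190.

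The 16 other precursors of neuron-enriched miRNAs in the table (of miR-124, miR-9, miR-132, miR-212, miR-134, miR-135, miR-383, miR-384, miR-433 and miR-488) had 0 calls in limma in each of the 5 contrasts, with 5, 4, 1, 1 and 2 unadjusted p values under 0.05, against 22.8%, 22.2%, 12.7%, 8.33% and 22.8% of the 324. Their median difference was -3.03 for WT + EtOH against WT and -1.56 for TLR4-KO against WT, with 6 differences above and 10 below 0 in the former and 7 above and 9 below in the latter, against 7 and 3, then 6 and 4, of the members. Both lists thus held differences on either side, and no test compared them. Between WT + EtOH and WT, 1 of the 16 was higher and 5 were lower without overlap, against 13.3% and 17.3% of the 324. Between TLR4-KO and WT 2 were higher and 3 lower, against 13.0% and 15.4%. mmu-mir-9-1, whose miRNA steers neural progenitors, stood at 94.6, 93.7 and 93.4 in WT and at 85.2, 88.7 and 90.0 in WT + EtOH, and its TLR4-KO values were 85.2, 88.7 and 89.7. Its difference between WT + EtOH and WT was -5.96 (CI -10.0 to -1.91, adjusted p = 0.181). On the other side, mmu-mir-383 stood at 76.0, 71.5 and 74.1 in WT and at 83.7, 82.4 and 81.6 in WT + EtOH, a difference of 8.70 (CI -1.83 to 19.2, adjusted p = 0.546). The 3 precursors of miR-124 differed by 3.19, 3.90 and 5.30 in this comparison, and their libraries overlapped those of WT. In TLR4-KO, mmu-mir-134 and mmu-mir-212 were above WT without overlap, by 5.97 (adjusted p = 0.357) and 6.42 (adjusted p = 0.520).

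For each member above 0 in all libraries, the 2 precursors outside its family with the most similar profile over the 12 libraries were found among the others above 0 in all of them. These libraries share the separation of WT described above, and the coefficients are descriptions without a test. mmu-mir-128-1 was most like mmu-mir-351 (r = 0.902) and mmu-mir-125b-2 (r = 0.900), and mmu-mir-128-2 like mmu-mir-1306 (r = 0.939) and mmu-mir-1224 (r = 0.745). The nearest to mmu-mir-129-2 were mmu-mir-139 (r = 0.948) and mmu-mir-873b (r = 0.948), which were also nearest to mmu-mir-129-1 (r = 0.937 and 0.939). The coefficients were lowest for mmu-mir-138-1, with mmu-mir-5103 (r = 0.597) and mmu-mir-345 (r = 0.593), and those of mmu-mir-138-2 were 0.799 with mmu-mir-181d and 0.763 with mmu-mir-146a. mmu-mir-126a was nearest to both copies of miR-218, with r = 0.958 for mmu-mir-218-1 and 0.942 for mmu-mir-218-2, followed by mmu-mir-126b for the former (r = 0.922) and mmu-let-7f-1 for the latter (r = 0.913).

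Of 30 precursors that mark other cells of the tissue, limma called 1 higher and 2 lower in WT + EtOH than in WT. The counts were the same for TLR4-KO against WT. miR-126, known from endothelial cells, is carried by mmu-mir-126a and mmu-mir-126b. The sum of their values was 113, 115 and 121 in WT, 96.7, 105 and 111 in WT + EtOH, 98.5, 109.6 and 113 in TLR4-KO and 100.0, 105 and 115 in TLR4-KO + EtOH. The WT + EtOH sums were all below those of WT, in the direction of the miR-218 values. mmu-mir-126a, the more abundant, differed from WT by -6.58 (CI -12.4 to -0.768, adjusted p = 0.289 in limma) in WT + EtOH and by -5.37 (adjusted p = 0.463) in TLR4-KO, and 0 of the 2 were called, with 1 unadjusted p under 0.05 for WT + EtOH and 0 for TLR4-KO. The part of endothelial content in the miR-218 values was not tested.

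Of the 5 erythroid precursors, those of miR-451, an RNA of red blood cells, fell. mmu-mir-451a stood at 50.2, 50.2 and 46.3 in WT, at 31.7, 35.3 and 36.0 in WT + EtOH and at 26.3, 33.8 and 33.8 in TLR4-KO, all below WT. It fell by 14.6 (adjusted p = 0.0346 in limma) in WT + EtOH and by 17.6 (adjusted p = 0.00948) in TLR4-KO, and mmu-mir-451b, which has the same values, likewise. mmu-mir-486b lay on the other side, with all WT libraries below those of WT + EtOH (difference 8.19, adjusted p = 0.196) and of TLR4-KO (8.76, adjusted p = 0.139). The sum over the 5, which counts the equal values of mmu-mir-451a and mmu-mir-451b once for each, was 305, 306 and 287 in WT, 278, 279 and 281 in WT + EtOH, 258, 272 and 278 in TLR4-KO and 244, 260.1 and 273 in TLR4-KO + EtOH, with mmu-mir-486a the most abundant. How reads were shared between these precursors is not given in the sources used here. Among 6 precursors of microglia and other leukocytes 1 was called in each of these comparisons, and 1 and 2 had an unadjusted p under 0.05. It was mmu-mir-150, known from lymphocytes, which rose from 69.7, 68.7 and 69.7 in WT to 74.1, 76.8 and 79.4 in WT + EtOH (7.41, adjusted p = 0.0444) and to 81.1, 78.0 and 76.8 in TLR4-KO (9.28, adjusted p = 0.00958). In the same list mmu-mir-146a differed by -6.21 (adjusted p = 0.806) and -12.0 (adjusted p = 0.217), with the WT libraries above those of both groups, and mmu-mir-142a by -11.8 (adjusted p = 0.532) in TLR4-KO, again with the WT libraries above. The sum over this list was 160.3, 161 and 161 in WT, 167, 148 and 162 in WT + EtOH, 143, 163 and 154 in TLR4-KO and 167, 152 and 156 in TLR4-KO + EtOH, so that the sums overlapped. mmu-mir-150 was the most abundant of the list, while mmu-mir-223, a marker of myeloid cells, was at 0 in all 12 libraries. The part of blood cells in the values of the neuron-enriched members was not tested.

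The remaining marker lists had 0 calls in limma in the comparisons of WT + EtOH and of TLR4-KO with WT. Unadjusted p values under 0.05 numbered 0 and 0 of 4 for oligodendrocytes (median differences 2.50 and -2.32), 2 and 2 of 3 for smooth muscle and pericytes (0 and 0), 0 and 1 of 6 for choroid plexus and ciliated cells (0 and 0.311), and 0 and 2 of 4 for astrocytes and other glia (-6.38 and -4.68). The most abundant of these were mmu-mir-338, mmu-mir-143, mmu-mir-204 and mmu-mir-21a, in that order of lists. mmu-mir-145b, mmu-mir-449a, mmu-mir-449c and mmu-mir-23a were at 0 in all 12 libraries. The medians of 0 for smooth muscle and pericytes are the values of mmu-mir-145b, while the other 2 of that list lay on opposite sides. In mmu-mir-143 the WT libraries were above the other 9, with differences of -6.45 (adjusted p = 0.0649) for WT + EtOH and -4.53 (adjusted p = 0.169) for TLR4-KO. In mmu-mir-145a they were below the other 9, with differences of 8.09 (adjusted p = 0.151) and 6.91 (adjusted p = 0.192). The part of vessel wall cells in the values of the members was not tested. The glial sum was 84.2, 71.7 and 85.1 in WT and 43.4, 57.3 and 62.6 in WT + EtOH, so that the WT libraries were higher, as for miR-218. The 58.6, 54.6 and 67.2 of TLR4-KO were also lower, whereas TLR4-KO + EtOH, at 86.2, 74.0 and 55.7, overlapped WT. Within this list mmu-mir-29a went the other way in TLR4-KO, with a difference from WT of 4.14 (CI -5.36 to 13.6). The sums add scores without a stated formula and are descriptions only, and the part of glia in the values of the members was not tested. In the other 3 contrasts, 0 precursors of the 7 marker lists were called in limma, with unadjusted p values under 0.05 for 3 (TLR4-KO + EtOH against TLR4-KO), 3 (TLR4-KO + EtOH against WT + EtOH) and 8 (difference of the alcohol effects) of 30. In the same order, the shares of the 324 precursors above 0 in any library were 12.7%, 8.33% and 22.8%.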

How the data were processed

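Small RNA libraries of 12 cortex pools, 3 in each of 4 groups, were analysed from the deposited table of the series. The authors trimmed adapters, mapped the reads and, by the study's methods, normalized counts by the trimmed mean of M values. The submitters' processing notes name FastQC 0.11.6, cutadapt, Bowtie2 2.2.5, TopHat and the build GRCm38. The deposited unit is a score without a stated formula: all libraries have the same highest value (135) and draw on a common set of 386 levels, and 0 is kept. The authors tested counts with edgeR. The deposited values are not counts, and the depth behind a value cannot be read from them, so that limma (version 3.58.1, run under R 4.3.3, with lmFit, contrasts.fit and eBayes at their defaults) was used with the same design, which fits a mean for each group over all 12 libraries without covariates. Values entered as deposited, with no filter and no pseudocount. p values were adjusted by Benjamini-Hochberg over the 589 precursors, with a threshold of 0.05, in 4 comparisons of groups and a contrast of the alcohol effects. Intervals cover 95%. p values measure the spread between pools of 3 mice.

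Named were the 10 members, 16 other neuron-enriched precursors, mmu-mir-129b, 7 lists of markers of other cells, the 2 precursors most like each member, and any precursor of these lists that passed the threshold. Precursors of these lists other than the members were picked as examples after their values were seen. The members and lists were chosen with earlier results of these data known. Alternatives were quantile normalization, centring on miR-181a and miR-181b or on the library median, a filter that keeps the 285 precursors above 0 in at least 3 libraries, a fit of only the groups being compared, a block for the replicate number, copies within 1% merged (586 left), robust eBayes with trend and each library left out. Leaving out the first replicates of the 3 groups other than WT together was chosen after seeing the data, because these libraries held more precursors above 0 than the others of their groups. The fit was tested on simulated data. Tables and figures were made with Python 3.11.15, numpy 2.4.6, pandas 2.3.3 and matplotlib 3.10.9. Sequences and hairpin positions are from RefSeq (GRCm38.p6), and host genes from GENCODE M21.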

Additional observations from a re-analysis of the deposited data

Results flagged for a closer look

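Beside the members, precursors of the comparison lists were looked at for opposite responses to alcohol in the genotypes. For 3 of the 46, of which 41 were above 0 in any library, the alcohol libraries all lay to one side of the water libraries in WT mice and to the other side in TLR4-KO mice, and limma's contrast of the alcohol effects did not pass 0.05 for any. mmu-mir-384, a neuron-enriched precursor, stood at 41.3, 41.8 and 37.0 in WT and 19.5, 24.0 and 29.6 in WT + EtOH, and at 30.3, 37.8 and 33.8 in TLR4-KO and 52.7, 41.0 and 38.8 in TLR4-KO + EtOH. Its alcohol effects differed by 25.9 (adjusted p = 0.0713). For mmu-mir-146a, a leukocyte precursor that is also induced in other cells, the effects differed by 20.0 (adjusted p = 0.194), and for mmu-mir-150 by -10.4 (adjusted p = 0.0511). The pattern was found for 0 of the 10 members, and for 9 of the 324 precursors above 0 in any library (2.78%).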

How the results depend on the processing

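Of the differences of members under the alternatives tried, 987 kept their direction and side of the threshold, 13 kept the direction and passed the threshold, and 40 changed sign. Many of these differences could not change sign. The filter, the block, robust eBayes and the fit of only the groups compared leave a difference of means as it is. So does leaving out a library of a group that is not compared. As 0 members passed the threshold before any alternative was applied, a difference could change side only by passing it. No sign change could thus touch a difference that had passed at first. The number of members called was 0 and became 1 as follows. For WT + EtOH against WT it was 1 with centring on miR-181a and miR-181b, with centring on the library median, among precursors above 0 in at least 3 libraries and with robust eBayes with trend (mmu-mir-128-1, adjusted p = 0.0136, 0.0496, 0.0464 and 0.0154), and 1 with only the groups compared (mmu-mir-137, whose values in these groups are at the lowest levels of the scale or at 0). For TLR4-KO against WT it was 1 with centring on miR-181a and miR-181b, with the filter and with robust eBayes with trend (mmu-mir-128-1, 0.0230, 0.0415 and 0.0349). For the difference of the alcohol effects it was 1 with centring on miR-181a and miR-181b (mmu-mir-128-1, 0.0496). With a library left out, the count ran from 0 to 1 in these 3 contrasts, the 1 being mmu-mir-128-1 without WT replicate 1, and was 0 in the other 2 contrasts under every alternative. Fewer tests were adjusted under the filter, and the cause was not tested otherwise.

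With replicate number as a block the count of members called was 1 for WT + EtOH against WT (mmu-mir-218-1, adjusted p = 0.0447, range over its alternatives 0.0447 to 0.549) and 0 elsewhere. The numbers were not taken to pair the libraries, because deviations of same-numbered libraries did not all correlate above 0.1: the 18 pairs ran from -0.109 to 0.153, with 10 above 0.1. Between TLR4-KO and TLR4-KO + EtOH all 3 pairs were above it (0.133, 0.101 and 0.153), and the block gave 0 members and 3 precursors there, against 0 and 2 without it. In all, 8 of 12 libraries were closest to their own number, a hint from the data and not from the design.

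Centring on miR-181a and miR-181b gave -0.900 for mmu-mir-128-1 between TLR4-KO + EtOH and TLR4-KO, -0.514 for mmu-mir-138-2 and -0.179 for mmu-mir-218-1 between TLR4-KO + EtOH and WT + EtOH, and -0.653 for the difference of the alcohol effects on mmu-mir-138-1. Leaving out the first replicates outside WT together, chosen after seeing the data, gave -0.451 for mmu-mir-128-1, 1.34 for mmu-mir-129-1, 0.729 for mmu-mir-129-2 and 0.227 for mmu-mir-153 between TLR4-KO + EtOH and TLR4-KO, -1.67 for mmu-mir-138-2 between TLR4-KO + EtOH and WT + EtOH, and -1.33 and -0.605 for the difference of the alcohol effects on mmu-mir-138-1 and mmu-mir-138-2. The causes were not tested.

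With 1 library left out, signs were not stable for the following differences. Between TLR4-KO + EtOH and TLR4-KO, the ranges were -0.932 to 0.979 for mmu-mir-128-1, -3.45 to 0.856 for mmu-mir-128-2, -3.12 to 1.46 for mmu-mir-129-1, -3.83 to 0.798 for mmu-mir-129-2, -7.32 to 4.82 for mmu-mir-153 and -3.34 to 0.271 for mmu-mir-218-2. Between TLR4-KO + EtOH and WT + EtOH they were -2.01 to 0.00861 for mmu-mir-128-1, -3.74 to 0.0149 for mmu-mir-129-1, -1.62 to 0.410 for mmu-mir-138-1, -0.630 to 1.77 for mmu-mir-138-2, -12.9 to 2.51 for mmu-mir-153, -1.34 to 3.16 for mmu-mir-218-1 and -0.857 to 2.96 for mmu-mir-218-2. For mmu-mir-137 between TLR4-KO and WT the range was -2.45 to 7.80, for mmu-mir-138-2 between WT + EtOH and WT -0.645 to 1.74, and for the difference of the alcohol effects on mmu-mir-138-1 -0.754 to 1.96.

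Of all precursors, 10 were called for WT + EtOH against WT, and 4 to 33 under the alternatives (21 with the filter, 18 with robust eBayes with trend and 33 without the first replicates outside WT). For TLR4-KO against WT 15 were called and 11 to 31 under the alternatives, and for the difference of the alcohol effects 7 and 2 to 22. For TLR4-KO + EtOH against TLR4-KO the counts were 2 and 0 to 7, and against WT + EtOH 3 and 0 to 3. Pools of 3 mice, 3 per group, and values without read counts limit what could be detected, above all for mmu-mir-137 and mmu-mir-153, whose values reach 0. A library left out leaves its group 2 libraries, which share the spread of the other groups.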
